A study of Mus musculus with 3 samples.

Results

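Endothelial cells, which line blood and lymph vessels, were chosen by measured expression in a droplet single cell RNA-seq table, as the cells with a transcript of at least 3 of 5 genes: *Cdh5* (VE-cadherin, the adherens junction protein of endothelium), *Egfl7* (a secreted endothelial matrix protein), *Emcn* (endomucin, a surface sialomucin), *Plvap* (the protein of the diaphragms that span fenestrae) and *Cd93* (a C-type lectin-like receptor). This rule found 297 of 14476 cells. The table came from 3 mouse tissues labelled normal, with 1 library each: male urogenital sinus (UGS, the embryonic precursor of the prostate) of embryonic stage E18.5, and prostates of postnatal ages P14 and P35. All were dissociated with collagenase and TrypLE, and neither the labels nor the study's methods give a genotype, a strain or the number of animals for these particular libraries. The methods state that the mice of the study were of mixed C57BL/6 and 129S1/SvImJ background and that reads were also aligned to *mGFP* and human androgen receptor transgene sequences. The table marks its cells only by barcode endings 1, 2 and 3, called sets 1, 2 and 3 here, and since no label links an ending to a tissue, the sets were not given ages, no test between them was possible and values are listed side by side. The number of cells in the smallest set, set 1, equals the one the study states for the E18.5 UGS, while those of the other sets equal none of its numbers, and cell numbers were not used to assign tissues. Counts of unique molecular identifiers (UMIs, 1 for each captured transcript) were recovered from the deposited values, and 13 barcodes were shared by sets 2 and 3, 1 of them that of an endothelial cell. Rates are given as CPM, the UMIs of a gene in all cells of a kind per 1000000 of their UMIs, and each 95% interval covers counting error alone.

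Endothelial cells respond to vascular endothelial growth factors through receptor tyrosine kinases, hold each other at VE-cadherin junctions and rest on a basement membrane that they share with pericytes. Arteries, capillaries, veins and lymphatic vessels carry endothelium with different surface receptors and transcription factors, among them Notch pathway genes in arteries, leukocyte adhesion molecules in veins and *Prox1* in lymphatics. In the prostate the vessels lie in the stroma around the epithelial ducts.

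Members of the ETS family of transcription factors, which bind DNA at a GGAA core, are known regulators of endothelial genes, often beside forkhead factors, so the bases before the start of 3 genes are shown. They are the genes with the highest lowest fold over the 3 sets, in endothelial over other cells, among those with a RefSeq promoter (GRCm38.p6, the assembly of mm10). *Emcn* and *Egfl7* are rule genes, so their folds follow from the choice of cells and their place here is a description. Capitals mark the ETS words AGGAAG and CGGAAG, the forkhead and ETS word ACAGGAA, the GATA word AGATAA and the SOX word AACAAT on either strand. The *Emcn* stretch, which was cut where *Emcn* begins in the RefSeq gene table, lies at chr3:137340828-137341061 on the plus strand, that of *Gimap6* (a small GTPase of the GIMAP family) at chr6:48708245-48708494 on the minus strand, and that of *Egfl7*, at the first of its 3 listed starts, at chr2:26580833-26581082 on the plus strand.
Emcn: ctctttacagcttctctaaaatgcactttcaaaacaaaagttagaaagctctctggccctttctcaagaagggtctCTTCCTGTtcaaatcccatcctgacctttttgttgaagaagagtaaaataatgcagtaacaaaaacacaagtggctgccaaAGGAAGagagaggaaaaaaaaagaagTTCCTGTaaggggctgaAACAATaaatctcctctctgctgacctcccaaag
Gimap6: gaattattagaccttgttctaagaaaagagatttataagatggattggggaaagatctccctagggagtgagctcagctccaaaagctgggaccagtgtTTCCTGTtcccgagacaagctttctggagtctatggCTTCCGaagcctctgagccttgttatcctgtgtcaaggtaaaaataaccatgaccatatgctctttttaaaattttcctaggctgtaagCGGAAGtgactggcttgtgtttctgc
Egfl7: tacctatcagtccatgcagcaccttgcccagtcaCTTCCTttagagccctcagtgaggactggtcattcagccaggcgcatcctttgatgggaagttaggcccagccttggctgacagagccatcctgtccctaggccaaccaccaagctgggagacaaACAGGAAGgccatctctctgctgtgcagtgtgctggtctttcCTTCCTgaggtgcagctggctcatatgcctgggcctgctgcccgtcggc

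Every one of these stretches held an ETS word and the forkhead and ETS word, which shared bases at 1 place each in *Emcn* and *Egfl7* and at none in *Gimap6*. *Egfl7* held AGGAAG at 3 places and *Emcn* at 2, while *Gimap6* held CGGAAG at 2. *Emcn* held the forkhead and ETS word at 2 places and was the only 1 of the 3 with the SOX word, and none held the GATA word. Among the genes at least 4-fold higher in endothelial cells of each set, 50 had a promoter in the reference, and 46.0% of them held AGGAAG within 250 bases before the start, against 29.2% of all 27025 promoters of that length. ACAGGAA was in 16.0% against 7.05%, CGGAAG in 12.0% against 13.8%, AGATAA in 8% against 10.3% and AACAAT in 6% against 9.65%. Among the 7315 promoters of genes with a row in the table, the shares were 28.1%, 5.81%, 21.9%, 6.48% and 5.5% in the same order. The 50 genes include the rule genes *Emcn* and *Egfl7*, whose folds follow from the choice of cells. A match describes letters and not binding.

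The rule found 39 of 766 cells in set 1 (5.09%, 95% exact binomial interval 3.65 to 6.89), 87 of 5350 in set 2 (1.63%, 1.30 to 2.0) and 171 of 8360 in set 3 (2.05%, 1.75 to 2.37). All 5 genes were detected in 27, 42 and 65 cells, 4 in 6, 18 and 53, and exactly 3 in 6, 27 and 53 cells of sets 1, 2 and 3. Only 20, 17 and 32 cells held 2 of the genes, fewer than held 1 (127, 169 and 310 cells). The depth differed between sets: a median endothelial cell had 21379 UMIs in set 1 but 3827 in set 2 and 3738 in set 3, against 19187, 1726 and 1787 in the other cells. Since each detection needs a UMI, the rule finds a deep cell more readily than a shallow one.

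**Figure D1:**
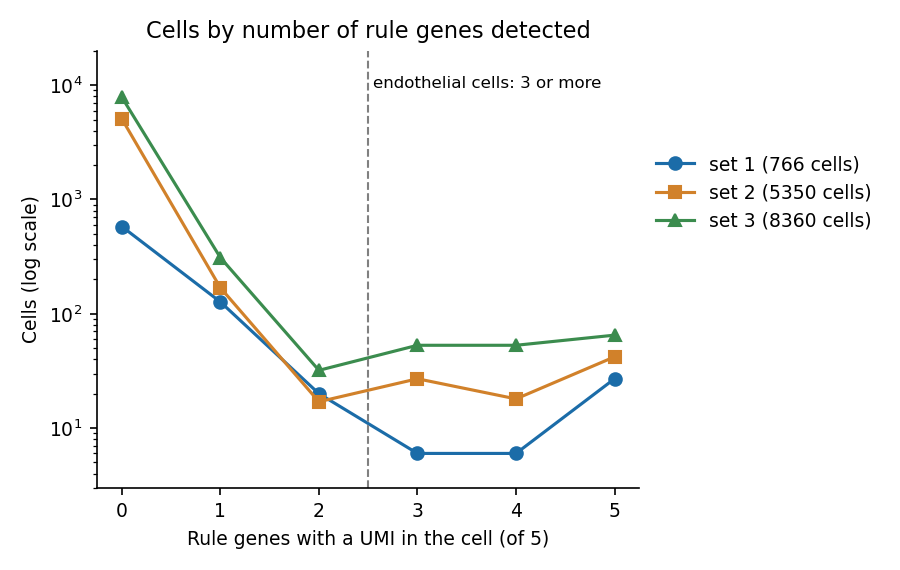
Cells (log scale) by the number of the 5 rule genes with a UMI, 1 line per barcode set, with the dashed line at the threshold. In sets 2 and 3 the lines fall to 17 and 32 cells at 2 genes and rise to 42 and 65 cells at 5 genes, and in set 1 the line falls to 6 cells at 3 and 4 genes and rises to 27 at 5.

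Among the rule genes, the values of which chose the cells and are therefore a description, *Emcn* was detected in 39 of 39, 81 of 87 and 158 of 171 endothelial cells and *Egfl7* in 39, 68 and 112. *Plvap* was the least often detected of the 5 in set 2 (59 cells), and *Cd93* in set 1 (29 cells). Called by the other 4 genes alone, with at least 3 of them detected, cells held *Cdh5* in 84.2% (32 of 38), 89.6% (60 of 67) and 87.6% (113 of 129) of sets 1, 2 and 3, while 0.549%, 0.928% and 0.96% of the remaining cells held it. Treated the same way, *Emcn* was in 33 of 33 cells of set 1 and in 90.9% and 90.0% of sets 2 and 3, *Cd93* in 73.7%, 82.9% and 86.9% and *Plvap* in 94.3%, 64.1% and 64.9% of sets 1 to 3. *Egfl7* was in 33 of 33 cells of set 1 but in 74.0% and 61.4% of sets 2 and 3. *Cdh5* stood at 655, 903 and 764 CPM in cells so called, and at 0.208, 5.65 and 5.17 CPM in the rest. At the threshold itself, the summed rate of 13 further endothelial genes was 157, 869.8 and 1055 CPM in cells with 2 rule genes and 351, 1955 and 1939.7 CPM in cells with 3. Cells with all 5 were at 3174, 3757 and 3559 CPM, so the 6 cells of set 1 with 3 rule genes lay far below the rest of that set's endothelial cells.

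The cells carried the endothelial programme well beyond the genes that chose them. Of 13 pan-endothelial genes with a row, none of them in the rule, 13, 12 and 13 were at least 4-fold higher in endothelial than in other cells of sets 1, 2 and 3 (5 CPM added to both rates), where 1.67%, 1.53% and 2.19% of all 9781 genes were. Their median fold was 19.1, 25.5 and 17.3, against 0.92, 0.984 and 0.98 over all genes. The exception was *Ushbp1* in set 2, at 9.28 CPM (2.53 to 23.8) from 4 cells and at 0 UMIs in the other cells.

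*Kdr* (VEGFR2, the main signalling receptor for VEGF-A) stood at 249.7 CPM (223 to 279) in set 1, 652 (578 to 733) in set 2 and 455 (410.4 to 502) in set 3, against 1.76, 3.74 and 6.07 CPM in the other cells. *Kdr* had a UMI in 82.1%, 73.6% and 71.3% of endothelial cells and in 3.58%, 1.01% and 1.66% of the others. *Flt1* (VEGFR1, which binds VEGF-A with little signalling of its own) was nearly level over the sets at 571, 619.5 and 617 CPM, with overlapping intervals. The *Flt1* rate in the other cells was not level, at 36.4, 24.5 and 3.32 CPM, so its fold ran from 13.9 in set 1 to 74.8 in set 3. *Tie1* and *Tek*, the orphan and the angiopoietin receptor of the TIE family, stood at 234, 181 and 91.9 CPM and at 84.9, 78.9 and 63.6 CPM, with at most 1.42 CPM of either in the other cells. *Rasip1* (a regulator of vessel lumen formation) was at 279.6, 202 and 209.6 CPM, *Eng* (endoglin, a TGF-beta co-receptor) at 289, 439 and 386, and *Ptprb* (VE-PTP, a phosphatase that acts on TEK and VE-cadherin) at 182, 128 and 234. *Adgrl4*, an adhesion G protein-coupled receptor of endothelium, was at 105, 259.9 and 269 CPM and at less than 1 CPM in the other cells of every set. *Nos3*, which makes nitric oxide, was lower in set 2 (27.8, 14.4 to 48.6) than in sets 1 and 3 (73.5 and 65.9), with intervals that did not overlap.

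**Figure D2:**
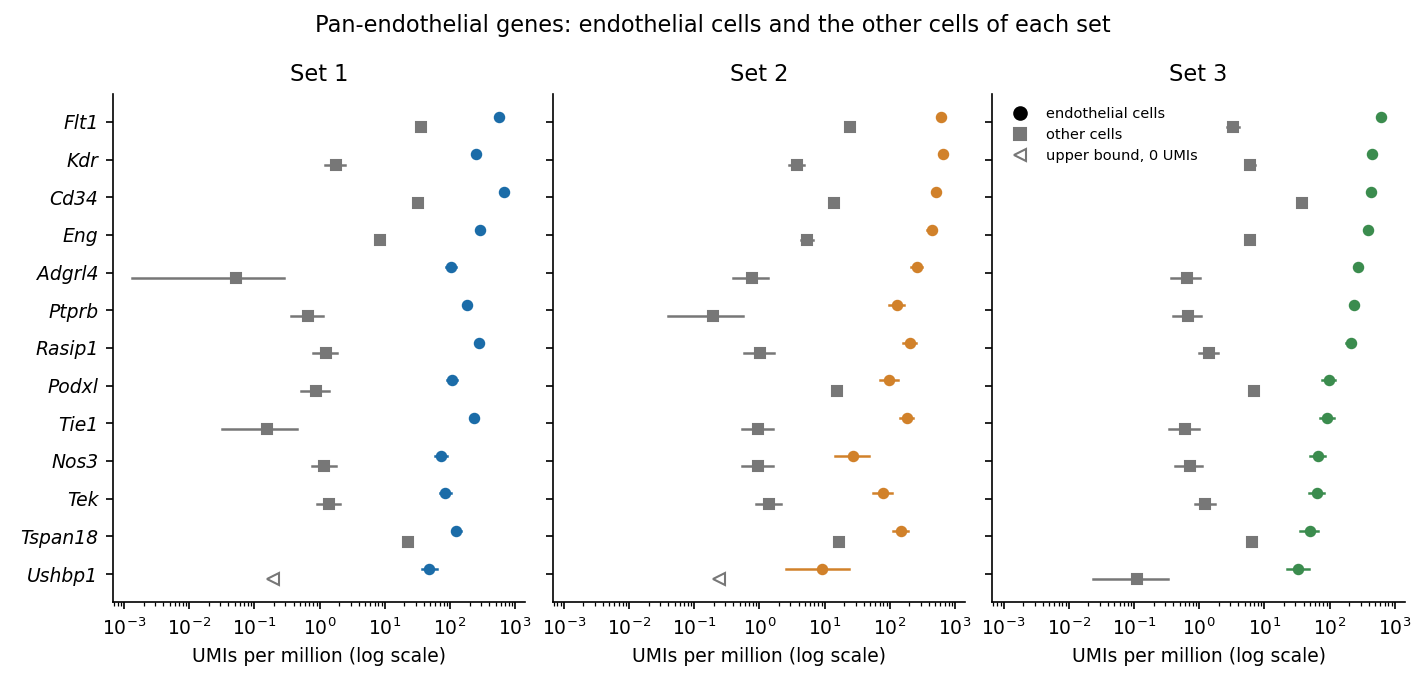
UMIs per 1000000 (log scale) of the 13 pan-endothelial genes in endothelial cells (circles) and other cells (grey squares) of each barcode set, with exact 95% Poisson intervals and open triangles for the upper bound where no UMI was found. Circles lie to the right of squares for every gene and set, and *Flt1* and *Cd34* are the genes with most signal in the other cells of set 1, at 36.4 and 32 CPM.

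Beyond the VEGF and TIE receptors, ligands and co-receptors differed in how steady they were over sets. Of 10 VEGF and TIE pathway genes with a row, 6, 6 and 8 were at least 4-fold higher in endothelial cells of sets 1, 2 and 3 (1.67%, 1.53% and 2.19% of all genes were). In every set 5 of them were, beside 0.828% of all genes. *Angpt2*, the TEK ligand that loosens vessels, was at 6.47 CPM (2.79 to 12.7) in set 1, near the 6.07 CPM of the other cells there. *Angpt2* was at 123 CPM (92.1 to 161) in set 2 and 41.2 (28.7 to 57.3) in set 3, 16.2-fold and 7.02-fold higher than in other cells. *Apln*, the apelin peptide made by sprouting endothelium, had another order, with 76.8 CPM (62.1 to 93.9) in set 1, 13.9 (5.11 to 30.3) in set 2 and 30.6 (20 to 44.9) in set 3. Its receptor gene *Aplnr* went from 116 CPM in set 1 through 74.3 in set 2 to 33.0 in set 3, and was detected in 61.5%, 25.3% and 10.5% of endothelial cells but in at most 0.275% of others. *Nrp2*, a VEGF-C and semaphorin co-receptor, had the reverse order (86.5, 271 and 417 CPM), and none of these 3 intervals overlapped.

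The Notch pathway was represented by its endothelial ligand. *Dll4* was at 145, 65.0 and 75.4 CPM and at most 3.01 CPM in other cells, and it was the only 1 of 10 Notch genes with a row that was at least 4-fold higher in every set (0.828% of all genes were). In sets 1, 2 and 3 taken alone, 2, 2 and 3 Notch genes were, beside 1.67%, 1.53% and 2.19% of all genes. *Notch1* was 4.9-fold higher in set 3 (351 CPM, 312 to 393), 3.09-fold in set 1 and 1.29-fold in set 2, where the other cells held 178 CPM. *Hey1*, a Notch target repressor, stood at 241 CPM (197 to 292) in set 2 and at 81.6 and 69.5 in sets 1 and 3. *Nrarp*, a feedback inhibitor of Notch, was at 172 CPM (149.8 to 197) in set 1, 55.7 (35.7 to 82.9) in set 2 and 21.2 (12.6 to 33.5) in set 3. *Notch2* was below the level of other cells in each set, with folds of 0.34, 0.579 and 0.343.

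Of the transcription factor genes, 4 of 14 with a row were at least 4-fold higher in each set, where 0.828% of all genes were. *Sox17* stood at 303, 209 and 138 CPM and *Sox18* at 106, 129.9 and 132; these SOXF factors act in arterial and lymphatic specification. *Elk3*, an ETS family factor, was at 242, 118 and 126 CPM, and *Lmo2*, a partner of TAL1 and GATA factors, at 235, 97.5 and 125. *Tal1* itself was sparse (12.1, 16.2 and 15.3 CPM) but at 0.259 CPM or less in other cells. The shear-responsive *Klf2* and *Klf4* did not single out endothelium: *Klf4* was at 133, 348 and 758 CPM against 459, 348 and 607 in other cells.

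Endothelial cells were rich in transcripts of the vascular basement membrane. Of 11 such genes with a row, 9, 5 and 5 were at least 4-fold higher in sets 1, 2 and 3 (1.67%, 1.53% and 2.19% of all genes were). The summed rate was 5236, 9005 and 7101 CPM against 1019, 2481 and 1842 CPM in other cells. *Col4a1* and *Col4a2*, the chains of the common type IV collagen, were highest in set 2, at 2476 CPM (2329.5 to 2629) and 1246 CPM (1143 to 1356), and at 1304 and 567 in set 1 and 1245 and 469.9 in set 3. *Hspg2* (perlecan) was at 343, 450.2 and 226 CPM. *Igfbp7*, a secreted protein of vessel walls that binds insulin-like growth factors weakly, was at 1151 CPM in set 1 and at 2949 and 3037 in sets 2 and 3. *Col4a1* and *Igfbp7* were also found in pericyte class cells (at least 2 of 4 pericyte markers, no other class and no endothelial call), which held *Col4a1* at 589.8, 1646 and 1408 CPM and *Igfbp7* at 968, 2012 and 4391 CPM in sets 1, 2 and 3. *Col18a1* and *Sparcl1* were at least 4-fold higher in set 1 alone, 7.26-fold and 5.08-fold, and *Col15a1* in sets 1 and 2.

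Genes for vascular tone, clotting and leukocyte traffic gave a mixed picture. *S1pr1* (a sphingosine-1-phosphate receptor that keeps junctions closed) was steady at 219.8, 179 and 174 CPM and at most 6.49 CPM in other cells, and with *Nos3* it was 1 of the 2 of 10 vasoactive genes at least 4-fold higher in every set (0.828% of all genes were). *Ece1*, which activates endothelin, was 4.32-fold, 3.63-fold and 6.09-fold higher. *Selp*, the P-selectin that captures leukocytes on venules, was at 18.6 CPM (11.8 to 27.9) in set 1, 193 (153 to 239) in set 2 and 606 (555 to 661) in set 3. Cells with *Selp* numbered 4 of 39, 10 of 87 and 62 of 171, and a single cell held at most 40 UMIs. *Sele* (E-selectin) remained low at 29.1, 9.28 and 40.0 CPM. *Vwf* (von Willebrand factor) was at 189.9, 44.1 and 114 CPM and *Thbd* (thrombomodulin, which turns thrombin to anticoagulant use) at 64.7, 51.0 and 108, and these were the 2 of 12 clotting genes at least 4-fold higher in each set, beside the same 0.828% of all genes. Of the 235 *Vwf* UMIs of set 1, 213 were in 2 cells, so its place above the other sets rested on that pair. *F3*, tissue factor, was at 0.808 CPM in set 1 against 165 in other cells, and at 132 and 199 CPM in sets 2 and 3 against 499 and 465.

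Water, lipid and drug transport was marked by few genes. *Aqp1*, the water channel of capillary and descending vessels, was at 313, 283 and 572 CPM and at 6.69, 10.5 and 19.9 CPM in other cells, although 177 of its 387 UMIs in set 1 were in a single cell. *Abcb1a*, the P-glycoprotein efflux pump, went from 16.2 CPM (9.87 to 25) in set 1 through 48.7 (30.2 to 74.5) to 86.0 (67.4 to 108) in set 3, and these were the 2 of 8 transporter genes at least 4-fold higher in every set (0.828% of all genes were). *Abcg2*, another efflux pump, reached 254 CPM in set 3 and was detected there in 59.1% of endothelial cells against 4.97% of others. *Slc2a1* (GLUT1) was at 504 CPM in set 1 and near the other cells in sets 2 and 3 (128 against 158, and 121 against 162). *Cd36*, a fatty acid translocase, was higher than in the other cells of each set, at 34.8, 109 and 50.6 CPM, but leukocyte class cells held more of it, at 94.1, 268 (8 UMIs, 116 to 529) and 270.3 CPM. *Fabp4*, a fatty acid binding protein of capillaries, was highest in set 2 as well (492 CPM, 428 to 563). *Cav1*, the coat protein of caveolae, was level at 758, 782 and 669 CPM but only 2.51-fold higher than other cells in set 2, in which fibroblast class cells held 401 CPM.

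**Figure D3:**
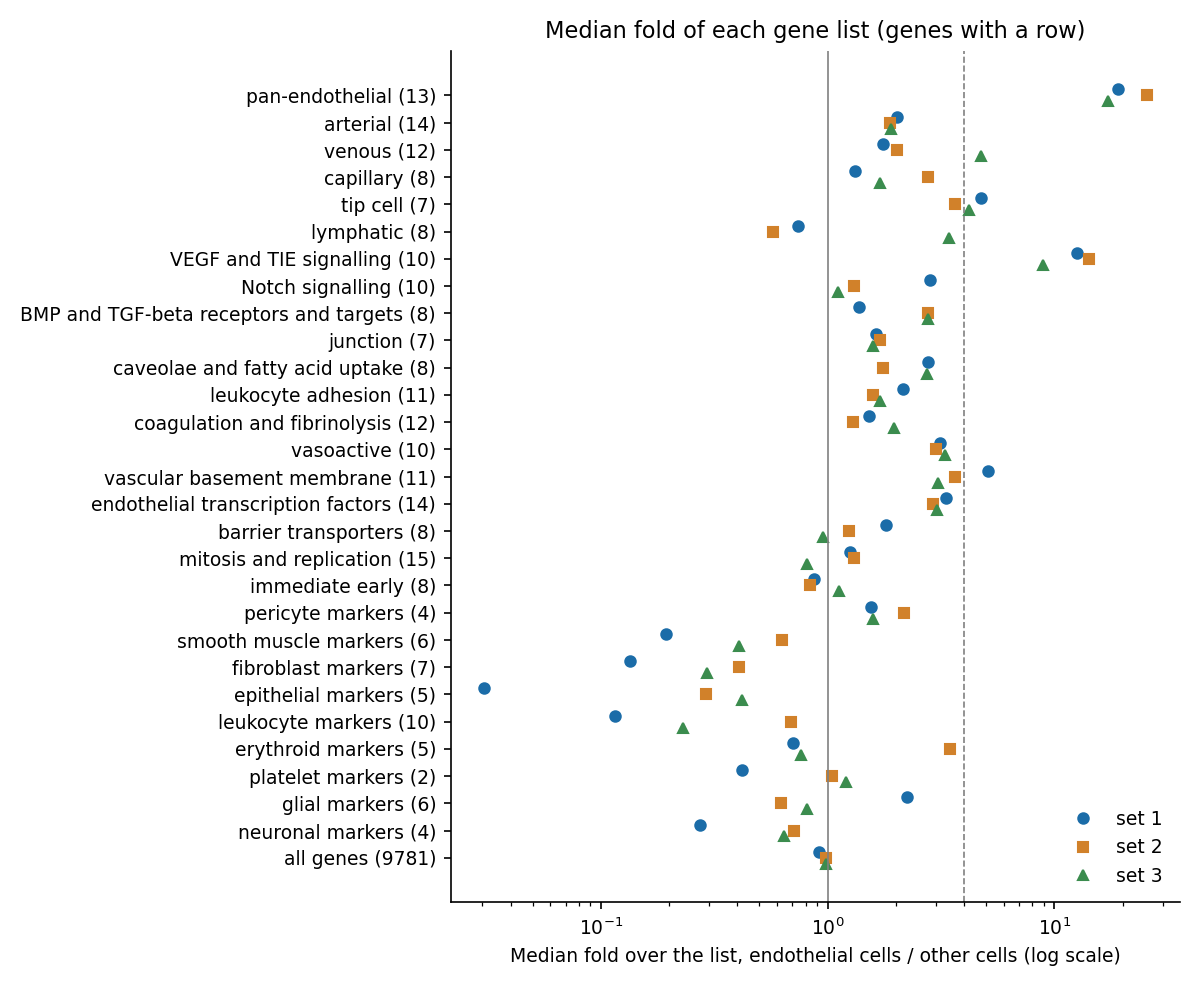
Median fold of each gene list in endothelial over other cells (log scale, 5 CPM added to both rates), 1 symbol per barcode set, with the number of genes with a row after each name. Pan-endothelial genes stand at 17.3 to 25.5 and VEGF and TIE genes at 8.9 to 14.2, while the median of all genes lies at 0.92 to 0.984 and epithelial, fibroblast and smooth muscle markers lie below 1.

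Vessel types were searched with arterial, venous, capillary and tip cell genes, many of which stromal cells use as well. With at least 2 genes of a list per cell, the arterial share was 82.1% of endothelial cells and 81.7% of the other cells in set 1, so at that depth the count did not separate them, while it was 79.3% against 35.9% in set 2 and 71.3% against 30.4% in set 3. Venous shares at full depth were 76.9%, 64.4% and 71.9% of endothelial cells in sets 1, 2 and 3, against 78.8%, 17.6% and 14.7% of other cells. After thinning each cell to 900 UMIs (0, 3 and 3 endothelial cells were shallower and left out), arterial shares were 23.1%, 28.6% and 28.0% against 9.03%, 15.3% and 13.9% of other cells. The venous share was 2.56% (0.0649 to 13.5) in set 1, 14.3% (7.61 to 23.6) in set 2 and 29.8% (23.0 to 37.3) in set 3, against 4.17%, 4.35% and 4.11% of other cells, an order of sets that full depth did not give. Thinned capillary shares were 17.9%, 35.7% and 23.2% against 5.69%, 6.5% and 7.83% of other cells, and tip cell shares 5.13%, 17.9% and 5.95% against 0.694%, 3.57% and 1.72%. *Selp*, *Nrp2*, *Vwf* and *Ackr1* were the venous genes with the largest folds in set 3, and *Ackr1*, an atypical chemokine receptor of venules, was at 0, 6.96 and 41.2 CPM. Of the 62 *Selp* cells of set 3, 53.2% held *Vwf* and 0% the arterial connexin gene *Gja4*, against 22.9% and 11% of the 109 cells without *Selp*. The arterial genes *Sox17* and *Dll4* were in 33.9% and 16.1% of the *Selp* cells, against 39.4% and 30.3% of those without. The *Selp* cells were also deeper, with a median of 4583 against 3544 UMIs. These gene pairs were chosen after the values were seen. Of the 18 cells of set 3 with *Aplnr*, also on the venous list, 44.4% held *Sox17* and 0% *Gja4*. In the cells without *Aplnr* the shares were 36.6% and 7.84%, at a median of 3577 UMIs against 6482 with it. Sets 1 and 2 had few *Selp* cells, and *Gja4* was in 1 of 4 of them against 7 of 35 cells without *Selp* in set 1 and in 1 of 10 against 8 of 77 in set 2. *Sox17* was in 4 of 4 against 25 of 35 cells in set 1 and in 3 of 10 against 42 of 77 in set 2.

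Several arterial genes of set 1 were concentrated in a pair of cells, which were singled out after their values were seen. In the table of all endothelial cells of set 1, they held 1808 and 1725 of the 3568 *Eln* (elastin) UMIs, all 5 rule genes each, and 87990 and 63309 UMIs in all. Together they carried 19 of 23 UMIs of *Gja5* and 138 of 192 of *Gja4* (both arterial connexins), 24 of 27 of *Bmx* (a kinase of arterial endothelium), 725 of 826 of *Mgp* (matrix Gla protein, which guards vessel walls from calcification) and 343 of 433 of *Stmn2*. They also held 213 of 235 UMIs of *Vwf*, which is on the venous list. The same cells held 7 of 1613 UMIs of *Col4a1*, 12 of 446 of *Apold1* and 0 of *Rgs5* and *Dcn*. Other arterial and Notch genes were less concentrated there or not at all: of the *Hey1* UMIs the pair held 30 of 101, of *Hey2* 5 of 19, of *Sox17* 28 of 375, of *Dll4* 13 of 179 and of *Heyl* 0 of 16, beside 151299 of all 1237281 endothelial UMIs of set 1.

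A lymphatic profile stood out in 4 cells of set 3, so the name vascular endothelium does not cover every cell that met the rule. Of *Ccl21a* (the chemokine that draws dendritic cells and T cells into lymphatics), *Mmrn1* (multimerin), *Lyve1* (a hyaluronan receptor), *Reln* (reelin) and *Prox1* (the lymphatic master regulator), 3 cells held all 5, 1 cell held 4, 2 cells held 1, and 165 of 171 held none. The 4 cells carried all 591 *Ccl21a* UMIs of set 3 endothelium, 373 of them in a single cell. None held *Flt1*, which 141 of the other 167 cells did. These 5 lymphatic genes, out of 8 with a row, and *Flt1* were chosen after the values were seen. Sets 1 and 2 had 0 UMIs of *Ccl21a* and *Lyve1* in endothelial cells, which limits *Ccl21a* to 2.98 and 8.56 CPM there. Set 1, with its deeper cells, did hold *Prox1* in 9 of 39 cells (13 UMIs), *Mmrn1* in 4 and *Reln* in 1, and set 2 held none of the 3. The wider list of 8 lymphatic genes gave no contrast in shares, with at least 2 of its genes in 7.02% of endothelial and 7.34% of other cells of set 3. *Pdpn* (podoplanin) and *Fgl2*, which are on that list, were in 28.3% and 17.3% of the other cells.

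**Figure D4:**
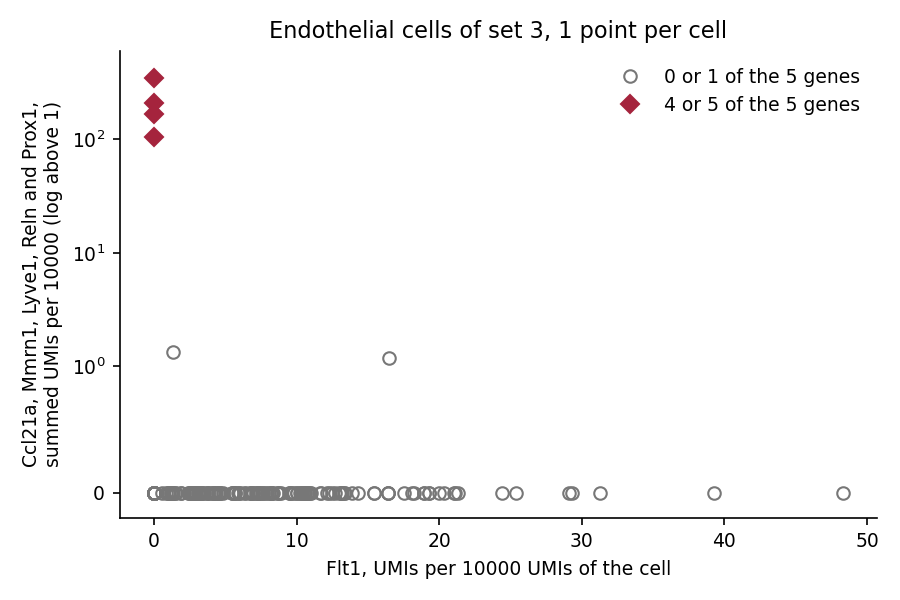
Each point is 1 of the 171 endothelial cells of set 3, by *Flt1* (UMIs per 10000 of the cell) and by the summed UMIs per 10000 of *Ccl21a*, *Mmrn1*, *Lyve1*, *Reln* and *Prox1* (log scale above 1). The 4 red cells lie between 105 and 342 with no *Flt1*, 2 cells lie at 1.18 and 1.34, and the remaining 165 lie at 0. The genes shown were chosen after the values were seen.

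Outside the lists, 35 further genes had at least 20 UMIs and a fold of at least 4 in every set, and the 20 with the highest lowest fold are named here. GTPases of the GIMAP family were 3 of them: *Gimap6* was at 327, 446 and 357 CPM and at most 1.81 CPM in other cells, and *Gimap5* and *Gimap4*, also on chromosome 6, at 92.9, 111 and 77.7 and at 45.3, 53.4 and 109.5 CPM. Leukocyte class cells held *Gimap6* at 13.4, 0 and 25.9 CPM. *Myct1*, a small membrane protein of endothelium, was at 187, 452 and 286 CPM and at most 1.16 CPM in other cells. *Tm4sf1*, a tetraspanin-like protein of endothelial filopodia, had the highest rates of these 20, at 2283, 2123 and 4434 CPM. *Plxnd1*, the receptor for semaphorin 3E, was at 242, 169 and 101 CPM, *Fzd4*, the receptor for norrin, at 112, 179 and 82.4 CPM, and *Scarb1*, the HDL receptor, at 105, 144 and 320.3 CPM. The other 12 were *Apold1*, *Trp53i11*, *She*, *Srgn*, *Prex2*, *Fgd5*, *Palmd*, *Neurl3*, *C130074G19Rik*, *Pde2a*, *Clec2d* and *Prcp*, with folds between 6.06 and 53.2.

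Not all of them were particular to endothelium among the classes. *Apold1*, a gene of early vascular responses, stood at 488 CPM (211 to 961, 8 UMIs) and 612 CPM (479.5 to 769) in pericyte class cells of sets 2 and 3 against 111 and 207 in endothelial cells, but at 92.8 against 360.5 CPM in set 1. Leukocyte class cells held *Srgn* (serglycin, the proteoglycan of leukocyte granules) at 1846, 1141 and 2137 CPM in sets 1, 2 and 3 against 425, 285 and 586 in endothelial cells. They held *Neurl3* at 58.3 against 59.8 CPM in set 1 and 236 against 145 in set 3. *Clec2d* was at 114 against 51.7 CPM in set 1 but 89.1 against 300.3 in set 3. *Prcp* was at 69.5 against 145 CPM in set 1 but 104 against 101 in set 3. In set 2 these cells had 0, 1 and 0 UMIs of the 3 genes. No gene was at least 4-fold lower than in the other cells of every set with 50 UMIs expected. In sets 1, 2 and 3, 3.47%, 0.296% and 0.542% of all genes were at least 4-fold lower.

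Epithelial, fibroblast and smooth muscle markers were present in sets 2 and 3, summed at lower rates than in the other cells, and were scarcer in set 1. Leukocyte markers were nearly absent: *Ptprc* (CD45) had 0 UMIs in every set, and no endothelial cell met the leukocyte rule of 3 markers. All 5 epithelial markers were at least 4-fold lower than in the other cells of set 1, where their summed rate was 24.2 CPM against 1607. In sets 2 and 3 it was 316 and 575 CPM against 1088 and 1504. The fibroblast marker *Dcn* (decorin) was at 27.5 CPM in set 1 against 1778 in other cells, and at 455 and 641 against 1730.4 and 1784 in sets 2 and 3, where 40.2% and 36.3% of endothelial cells held a UMI of it. The 7 fibroblast markers summed to 602, 1798 and 1099 CPM against 6632, 5005 and 3596, and the 6 smooth muscle markers to 139, 4065 and 1224 CPM against 809, 6656 and 4002. In all, 34 of 39, 51 of 87 and 118 of 171 endothelial cells met none of the pericyte, fibroblast, epithelial and leukocyte rules. Outside those rules, 13, 4 and 0 endothelial cells of sets 1, 2 and 3 held at least 2 erythroid markers and 3, 2 and 3 at least 2 glial markers. The erythroid markers summed to 129, 4147 and 8.24 CPM in endothelial cells against 700.5, 22.1 and 85.3 CPM in other cells. Pericyte markers went the other way, with a summed rate of 235, 195 and 245 CPM against 170.4, 34.6 and 58.4 CPM in the other cells. In set 1 a single cell held 61 of 125 *Rgs5* UMIs, and without it *Rgs5* was at 52.8 CPM, below the 68.5 CPM of the other cells. *Rgs5*, the leading pericyte gene, was in 15.4%, 18.4% and 17.0% of endothelial cells, at 101, 142 and 197 CPM, while pericyte class cells held 1139.8, 1890.2 and 3294 CPM. Whether these transcripts were free RNA, cells captured together or made by endothelium was not tested.

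None of 15 mitosis and replication genes and none of 8 immediate early genes was 4-fold higher or lower than in other cells of any set. With 1.67%, 1.53% and 2.19% of all genes 4-fold higher in sets 1, 2 and 3, a count of 0 says little for lists of this size. Their median folds were 1.25, 1.31 and 0.811, and 0.871, 0.837 and 1.12. *Mki67* was detected in 30.8%, 16.1% and 4.09% of endothelial cells and in 21.5%, 5.02% and 3.17% of other cells, shares that also follow the depth of the cells.

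Among the 10 genes that differed most between set 1 endothelium and both other sets were 3 imprinted genes, grouped after their values were seen. *Mest*, *Igf2* and *H19*, which are expressed from a single parental copy and act in fetal growth, stood at 2720.5, 716 and 924 CPM in set 1, 274, 78.9 and 53.4 in set 2 and 23.6, 5.89 and 0 in set 3. They were in 38, 38 and 37 of 39 cells of set 1, with at most 15.0% of the UMIs in any single cell, but the other cells had the same order of sets. There *Mest* was at 348, 42.7 and 14.6 CPM, *Igf2* at 171, 5.74 and 1.77 and *H19* at 391, 19.7 and 1.02. In all 56 genes had at least 20 UMIs and a rate at least 4 times that of both other sets. Besides these 3 the 10 highest were *EGFP*, *Fabp7*, *Eln*, *Ankrd37*, *Ass1*, *Ube2c* and *Ttyh1*. The pair of *Eln*-rich cells described above held 3533 of 3568 UMIs of *Eln* and 83 of 97 of *Ass1*, so the place of both genes here rested on that pair. *Ttyh1* was in 3 cells, 1 of which held 36 of its 64 UMIs. *Fabp7*, a glial fatty acid binding protein, was found in 3 cells, 2 of which held 343 and 265 of its 609 UMIs. *Ankrd37*, a hypoxia-induced gene, was in 25 of 39 cells at 183 CPM against 14 in other cells.

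Set 2 endothelium had 6 such genes. *Hbb-bs* and *Hbb-bt*, the adult beta globins, were at 3571 and 557 CPM, from 9 and 4 of 87 cells, and the highest pair of cells held 519 and 482 of the 1539 *Hbb-bs* UMIs. *Penk* and *Actg2* were higher in the other cells of the set (623 and 897 CPM) than in endothelial cells (329 and 594). *Il11* and *Rassf8* were at 51.0 and 109 CPM, against 30.8 and 105 CPM in the other cells of the set. Fibroblast class cells of set 2 held them at 54.5 and 187 CPM. Pericyte class cells there held *Il11* at 854 CPM (467 to 1432, 14 UMIs) and 0 UMIs of *Rassf8*.

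Set 3 endothelium had 40 such genes. Of the 10 highest, 7 are known as interferon-stimulated genes, a grouping made after their values were seen and with no list of such genes counted: *Isg15* (a ubiquitin-like modifier), *Ifi203* and *Ifi204* (DNA-sensing HIN-200 family members), *Gbp4* (a guanylate-binding GTPase), *Oasl2* (of the oligoadenylate synthetase family), *Irf7* (the transcription factor that amplifies interferon production) and *Sp100* (a nuclear body protein). *Isg15* was at 42.8 CPM (32.1 to 56.0), 46.4 (28.3 to 71.7) and 1006 (939 to 1076) in endothelial cells of sets 1, 2 and 3, and at 7.16, 12.5 and 105 CPM in their other cells. *Isg15* was in 86.5% of set 3 endothelial cells, with at most 26 UMIs in a cell, and 15.0% of the other cells held it. Thinned to 900 UMIs, the *Isg15* shares were 56.0% and 9.48%. *Gbp4* had the highest fold over the other cells of the 7 (41.0), at 236 CPM (204 to 271) against 0 UMIs in pericyte class cells (up to 30.9 CPM), 0.35 CPM in fibroblast class cells and 11.5 CPM in leukocyte class cells. *Isg15* and *Ifi203* were shared with pericyte class cells (1207 and 427 CPM against 1006 and 578) and lower in fibroblast class cells (274 and 111). *Ifi204* was shared with leukocyte class cells, at 83.4 CPM (55.8 to 119.8) against 94.2 in endothelial cells. Set 3 also had the highest rate of all 7 genes among the other cells, with *Ifi203* at 2.44, 8.71 and 36.6 CPM and *Irf7* at 3.01, 4.26 and 16.8 CPM in sets 1, 2 and 3. The remaining 3 of the 10 were *Ccl21a*, *Mmrn1* and *Fgl2*, all found in each of the 4 lymphatic cells above, and *Fgl2* in 24 of the other 167 cells as well.

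**Figure D5:**
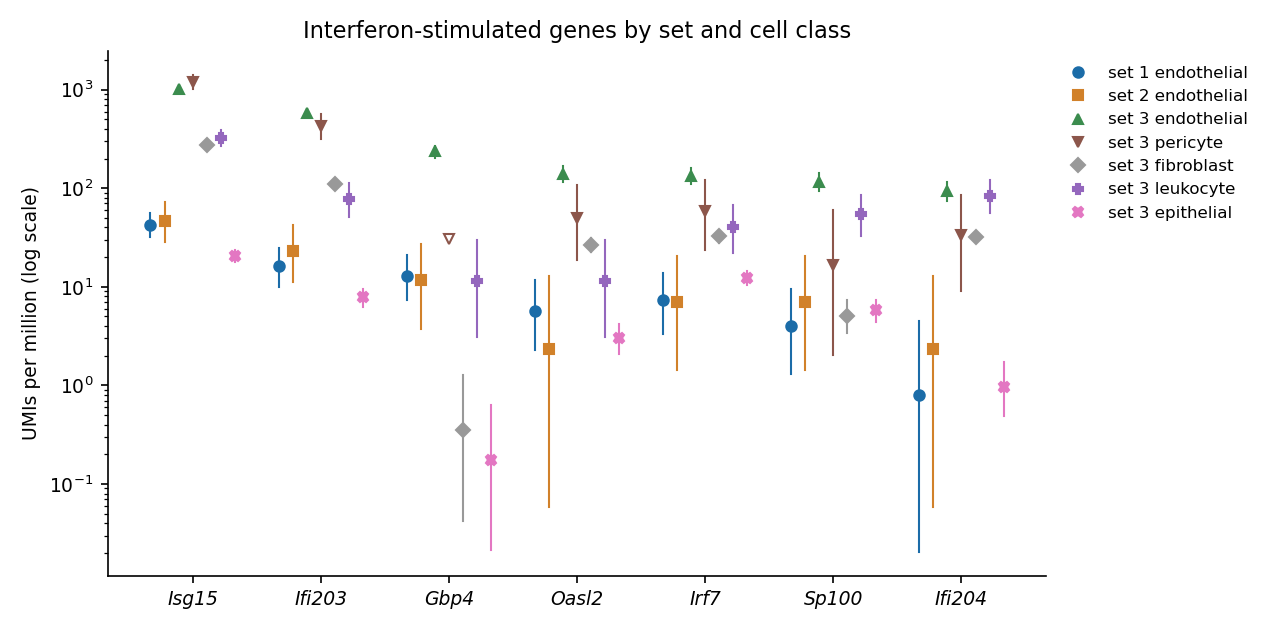
UMIs per 1000000 (log scale) of 7 interferon-stimulated genes, with exact 95% Poisson intervals, in endothelial cells of the 3 barcode sets and in pericyte, fibroblast, leukocyte and epithelial class cells of set 3; an open triangle is the upper bound for 0 UMIs. Set 3 endothelial cells (green triangles) range from 94.2 CPM for *Ifi204* to 1006 for *Isg15*; they lie above both other sets for all 7 genes because the genes were chosen for that.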

How the data were processed

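Droplet single cell RNA-seq (the labels give version v3 of the 3' kit, the study's methods v2) was done on 3 mouse tissues with 1 library each. The authors aligned reads to mm10 with added transgene sequences in Cell Ranger 3.1.0 and filtered for empty droplets, multiplets and mitochondrial RNA. Each value in the deposited table is a natural log that the authors took, ln(1 + x), where x is the UMI number per 10000 UMIs in that cell. UMIs and totals were recovered by inverting this, and 0 of 11120293 values above 0 lay further than 0.05 from a whole UMI. Raw counts had been foreseen in the design. The table was held in part: of 9784 rows, 1 with empty cells and 2 under a shared date name were left out, which kept 9781, and 9273 of these (94.8%) matched RefSeq GRCm38.p6. Cells with fewer than 200 genes were left out, and no doublet caller was run.

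Rates are summed UMIs per 1000000 UMIs with exact Poisson 95% intervals, and shares have exact Clopper-Pearson intervals. A fold is the ratio of both rates plus 5, and at least 4-fold higher or lower was called. No p-value was computed, because each tissue had 1 library and cells are not replicates. Pericyte class cells held at least 2 markers, and fibroblast, epithelial and leukocyte class cells at least 3. For thinned shares each cell was reduced to 900 UMIs at random. Named genes were list genes, the rule genes, the 20 genes outside the lists with the highest lowest fold among those with 20 UMIs in each set, and up to 10 genes per set with at least 4 times the rate of both other sets. The pair of *Eln*-rich cells of set 1, the gene pairs counted together in cells, and the 5 lymphatic genes set beside *Flt1* were chosen after their values were seen. The members and lists were chosen with earlier results of these data known. The calculations were tested on simulated data and run in Python 3.11.15 with numpy 2.4.6, scipy 1.17.1 and pandas 2.3.3.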

Additional observations from a re-analysis of the deposited data

Results flagged for a closer look

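The *EGFP* transgene row, which is in no gene list and stood first among the genes higher in set 1 endothelium than in both other sets, held 441 UMIs in 21 of 39 endothelial cells of set 1, a rate of 356 CPM (324 to 391), while its rate was 604 CPM in the other cells of that set and 0 UMIs were found in sets 2 and 3. A single cell held 247 of the 441 UMIs, and without it the *EGFP* rate of set 1 endothelium was 160.2 CPM. It was singled out as signal in data outside the main measurement, and its source was not tested.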

How the results depend on the processing

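No paired analysis was possible because each tissue had 1 library. With at least 2 rule genes the share of endothelial cells was 7.7% in set 1 and 2.43% in set 3, and with at least 4 it was 1.12% in set 2 and 1.41% in set 3. With cells thinned to 900 UMIs it was 2.64%, 0.699% and 1.03% in sets 1, 2 and 3. Without cells that met another class rule it was 0.953% and 1.41% in sets 2 and 3, and with at least 500 genes per cell 2.43% and 3.69%. The number of all genes at least 4-fold higher became 346 and 228 in sets 1 and 2 with thinned cells, 286, 283 and 339 in sets 1 to 3 with 1 CPM added, and 226 in set 2 without cells of another class. The other 84 of 90 counts of genes stayed within 1.5 times the reported count. Among them were those without cells that held at least 3 of the 8 lymphatic genes (1 cell of set 1 and 6 of set 3). Those without cells with erythroid or glial markers or without the deepest cell were among them too. These settings were chosen after seeing the data. The median fold of the rule genes was 76.2 in set 1 with at least 2 of the other 4 genes, and 52.8 and 56.3 in sets 2 and 3 with at least 3. With at least 1 marker, arterial shares were 94.3% and 92.4% in sets 2 and 3, venous 89.7%, 86.2% and 87.7%, capillary 94.9%, 98.9% and 94.2%, tip cell 88.5% and 78.4% in sets 2 and 3, and lymphatic 33.3%, 19.5% and 28.7%. Thinned, arterial shares were 23.1%, 28.6% and 28.0%, venous 2.56%, 14.3% and 29.8%, capillary 17.9%, 35.7% and 23.2%, tip cell 5.13%, 17.9% and 5.95%, and lymphatic 0% in set 1 and 3.57% in set 3. Of the results recomputed, the rule gene folds kept their direction. Thinning changed the order of the sets for the arterial, venous, tip cell and lymphatic shares, and the set 3 lymphatic share went from below that of other cells (7.02% against 7.34%) to above it (3.57% against 3.45%). Where a setting lowers depth or asks for other gene numbers, its construction changes how often genes are detected, and other causes were not tested.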
